A study of Mus musculus with 19 samples.

Results

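Cancer-associated fibroblasts (CAFs) sorted as podoplanin-positive (PDPN+) cells from mouse pancreatic ductal adenocarcinoma were compared between mice given neratinib and mice given vehicle. The comparison uses the 8 of 19 RNA-seq libraries whose titles mark them as CAF, 4 from vehicle-treated and 4 from neratinib-treated mice. The other 11 libraries, 6 vehicle and 5 neratinib, are EpCAM+ tumour cells from the same experiment. All tumours grew from PDAC T-LOH KPC organoids transplanted orthotopically into C57BL/6J mice, and both groups were treated for 2 weeks. The CAFs are therefore cells of the host strain around a transplanted tumour, and every vehicle mouse carried the same kind of organoid tumour as every neratinib mouse. The labels give no age, sex or dose. Each CAF library carries its own 5-digit number, read here as the mouse, and all 8 of these mice also gave an EpCAM+ library. Libraries are named below by treatment letter and that number: V53175, V53179, V53185 and V53188 for vehicle, N53178, N53180, N53184 and N53194 for neratinib. The labels do not say which tumours came from 1 organoid line or 1 transplantation day. The p-values measure the spread between these libraries only. With 1 CAF library per mouse, differences between mice and differences in sorting or library preparation cannot be told apart.

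Neratinib is an irreversible tyrosine kinase inhibitor of EGFR, ERBB2 (HER2) and ERBB4, the receptors for EGF, amphiregulin, heparin-binding EGF and the neuregulins. These receptors signal largely through the RAS-ERK and PI3K-AKT pathways, and active ERK raises the transcription of its own inhibitors, among them the DUSP phosphatases and Sprouty proteins. Pancreatic tumours are dense with fibroblasts, which are commonly divided into matrix-producing contractile myofibroblastic CAFs, cytokine-secreting inflammatory CAFs, and antigen-presenting CAFs that carry MHC class II and share genes with mesothelial cells. Fibroblasts in such tumours also deposit fibrillar collagen and hyaluronan.

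The fibroblast label held in all 8 libraries. Pdgfra, the PDGF receptor of fibroblasts, was at 1113, 876, 435 and 1276 CPM (read counts scaled to a common library total) in V53175, V53179, V53185 and V53188, and at 556, 428, 429 and 550 CPM in N53178, N53180, N53184 and N53194; in EpCAM+ cells its mean was 1.22 CPM under vehicle. Pdpn, the sorting antigen, was between 369 and 709 CPM under vehicle and between 343 and 425 CPM under neratinib. Col1a1, the main chain of type I collagen, was between 3718 and 14862 CPM in every CAF library. The epithelial marker Epcam did not exceed 0.588 CPM in any of them. Of the 5 epithelial markers it was the only 1 at or below 1 CPM in all 8 libraries. The 5 together summed to 273 to 911 CPM under vehicle and to 156 to 716 CPM under neratinib. Cdh1 and Cldn4 did not exceed 7.51 and 17.4 CPM, so nearly all of that sum was the keratins Krt7 and Krt19. The 10 fibroblast markers summed to between 17667 and 21914 CPM under vehicle and to between 20153 and 30267 CPM under neratinib. Of 16 fibroblast identity genes, 9 had a positive log2 fold change and 7 a negative one, with a median of 0.24. At an unadjusted edgeR p under 0.05, 2 were higher and 1, Pdgfra, was lower, beside 0.928% and 1.36% of all genes tested. The sort also held mesothelial transcripts: the mesothelin gene Msln was at 201 to 1243 CPM under vehicle and 281 to 624 CPM under neratinib. In sorted bulk samples, fewer cells of a type and less RNA per cell of that type cannot be told apart.

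The libraries held between 30318537 and 48058415 reads assigned to genes. Vehicle libraries differed among themselves more than neratinib libraries did in the number of genes with at least 10 reads: 11924 in V53188, 12102 in V53175, 16150 in V53179 and 18602 in V53185, against 13691 to 14682 under neratinib. The group means were 14694 ± 3255 and 14156 ± 421 genes (SD, n = 4 each, exact permutation test, two-sided p = 0.829; 4 against 4 cannot give a p below 0.0286). V53175 and V53188 stood apart from the other 6 libraries on the first principal component, which held 26.2% of the variance, and lay at opposite ends of the second, with 22.6%. Pairs of libraries correlated at 0.626 to 0.895 within vehicle, at 0.642 to 0.745 within neratinib and at 0.610 to 0.871 between the groups, as Pearson's r of log2 CPM across genes, which are not independent. The share of reads on the 13 mitochondrially encoded mRNAs was 8.92% ± 4.02 under vehicle and 13.3% ± 2.55 under neratinib (SD, n = 4 each, exact permutation p = 0.114). V53188, at 14.5%, was the only vehicle library inside the neratinib range, so leaving it out separates the groups. Without it the difference of means went from 4.43 to 6.30 percentage points. The exact permutation p was then 0.0286, the smallest that 3 against 4 can give, which the choice of that library fixed in advance. Over all single omissions the difference ranged from 3.22 to 6.30 percentage points.

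**Figure D1:**
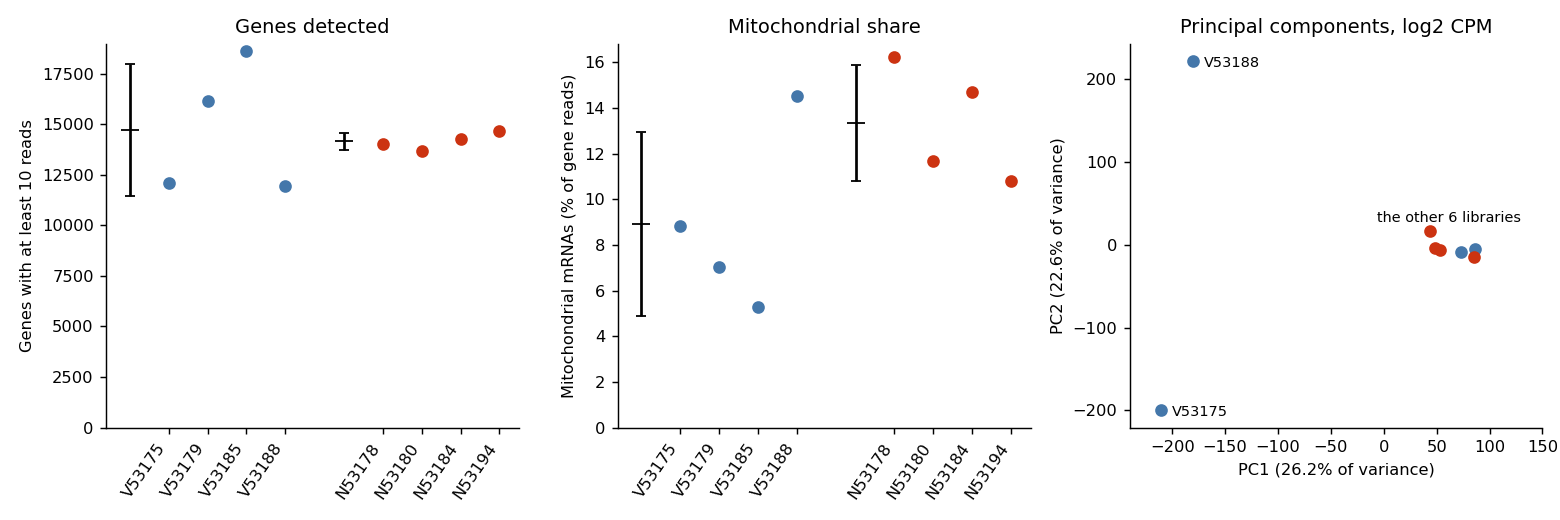
Genes with at least 10 reads (left), the share of gene reads on 13 mitochondrial mRNAs in percent (centre), and the first and second principal components of log2 CPM (right) for each CAF library, with the group mean and SD as black bars; vehicle is blue and neratinib red. V53175 and V53188 held the fewest genes and sat away from the other 6 libraries.

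No gene passed an adjusted p of 0.05 between neratinib and vehicle CAFs. Of 14437 genes tested with edgeR's quasi-likelihood test, 0% passed after Benjamini-Hochberg adjustment, and the adjusted p in this test was 1.00 for every tested gene named here. At an unadjusted p under 0.05 there were 331 genes, 2.29% of those tested, 134 of them higher (0.928%) and 197 lower (1.36%) under neratinib. In 172 genes (1.19%) all 4 neratinib libraries lay above all 4 vehicle libraries, and in 155 genes (1.07%) all 4 lay below. The spread between libraries was wide: the SD of log2 CPM over 4 libraries had a median of 1.25 under vehicle and 1.17 under neratinib. The median standard error of a log2 fold change was 1.06. Other analyses made a few calls. DESeq2 called 12 genes, 2 higher and 10 lower, among 643 at an unadjusted p under 0.05. limma on log2(TPM + 1) called 1 gene, Crabp2. A fit of all 19 libraries, in which the EpCAM+ libraries share in the estimate of spread, called 111 genes, 21 higher and 90 lower. Of the genes named below, both DESeq2 and the fit of all 19 libraries called Plekhb1, D3Ertd751e, Dapk2, Lin9, Fam161b and Large2; the fit of all 19 libraries alone called Metap1d and Aldh1a3. Leaving out any 1 library, or both V53175 and V53188, gave 0 calls. All values that follow are therefore levels and differences that did not pass the adjusted threshold in the 4 against 4 comparison.

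The gene with the smallest p was Crabp2, which encodes a carrier that delivers retinoic acid to its nuclear receptor. Its level was 71.0, 77.3, 36.8 and 117 CPM in the vehicle libraries V53175, V53179, V53185 and V53188, and 11.5, 7.26, 13.0 and 5.41 CPM in N53178, N53180, N53184 and N53194. The lowest vehicle library was well above the highest neratinib library. The log2 fold change was -3.02 ± 0.57 (SE, unadjusted p = 0.00024), and it stayed between -3.25 and -2.76 with any 1 library left out. The adjusted p ranged from 7.32e-06 with DESeq2 to 1.00 over the alternatives, and was 0.0480 in limma on log2(TPM + 1). Nearly all of its reads, 99.8%, were assigned to 1 transcript, Crabp2-201 (ENSMUST00000005019), which held between 2190 and 3639 reads in the vehicle libraries and between 194 and 510 in the neratinib libraries. In EpCAM+ cells Crabp2 was below 1 CPM in the mean of both groups, at 0.877 CPM under vehicle and 0.677 CPM under neratinib.

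A group of genes with the next smallest p values was present in all vehicle libraries and almost absent from all neratinib libraries. Plekhb1, a pleckstrin homology domain protein, was at 34.9, 13.0, 8.79 and 26.4 CPM in the vehicle libraries and at 0.0335, 0.139, 0 and 0 CPM in the neratinib libraries, with 90.2% of its reads on the transcript Plekhb1-203. Dapk2, a death-associated protein kinase, was at 24.3, 2.00, 1.75 and 25.0 CPM under vehicle and had 0 reads in all 4 neratinib libraries. Against a floor of 3 reads in the neratinib library with the lowest total, its mean of 13.3 CPM under vehicle was at least 132-fold higher. Both genes had their highest vehicle values in V53175 and V53188, the libraries that stood apart. Lin9, a subunit of the MuvB complex that controls cell cycle genes, showed the same order, with 42.9, 7.57, 4.43 and 28.4 CPM under vehicle and 0.302, 0.194, 0.179 and 0.892 CPM under neratinib. The transcript Lin9-203 held 1358, 316, 260 and 879 reads in the vehicle libraries and 0 in every neratinib library, so the few neratinib reads of Lin9 lay on other transcripts. D3Ertd751e, a gene with no function given here, was at 18.9, 12.5, 2.20 and 22.4 CPM under vehicle and at 0.0335, 0, 0.102 and 0 CPM under neratinib. Its vehicle reads were split by library: V53175 and V53188 held 580 and 666 reads on D3Ertd751e-208 and 0 on D3Ertd751e-207, whereas V53179 and V53185 held 531 and 79 reads on D3Ertd751e-207 and 0 on D3Ertd751e-208. Across all genes tested, 5 were at 1 CPM or more in all vehicle libraries and at 0.2 CPM or less in all neratinib libraries, and 2 showed the reverse; this pattern was searched for after the values were seen. The 5 are Plekhb1, Dapk2, D3Ertd751e, the sodium-calcium exchanger gene Slc24a2 and an antisense RNA.

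The remaining lower genes with small p values were abundant in both groups. Il1r1, the receptor through which interleukin-1 induces the inflammatory CAF state, was at 638, 532, 314 and 645 CPM under vehicle and at 278, 267, 286 and 163 CPM under neratinib. The groups did not overlap, although V53185 lay close to N53184. The means were 532 ± 154 and 248 ± 57.6 CPM (SD, n = 4 each), and the log2 fold change came to -1.10 ± 0.30 (SE, unadjusted p = 0.00372). Cyp7b1, an oxysterol hydroxylase, was at 162, 76.4, 59.2 and 72.9 CPM under vehicle and at 8.59, 37.0, 26.7 and 12.4 CPM under neratinib, again without overlap (log2 fold change -2.13 ± 0.57). Calca, the gene of calcitonin and the neuropeptide CGRP, was at 354, 347, 185 and 579 CPM under vehicle and at 39.2, 46.2, 152 and 152 CPM under neratinib. Its groups stood close together at V53185, N53184 and N53194 (log2 fold change -1.91 ± 0.52).

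**Figure D2:**
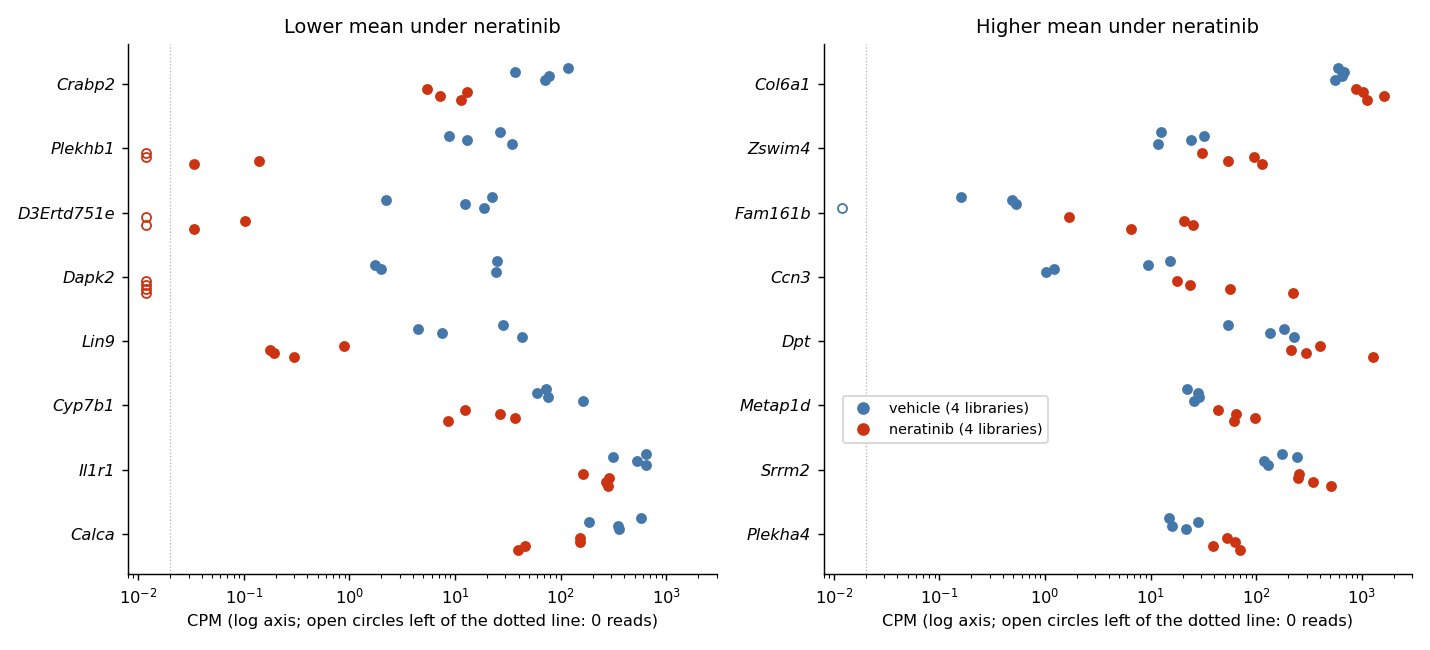
CPM on a log axis in each of the 8 CAF libraries (blue, vehicle; red, neratinib; open circles, 0 reads) for the 8 protein-coding genes per direction with the smallest p and a mean of at least 4 CPM. Plekhb1, D3Ertd751e, Dapk2 and Lin9 were below 1 CPM in every neratinib library, whereas Il1r1 was at 163 CPM or more in all 8 libraries.

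Among the genes with a higher mean under neratinib, Col6a1, a chain of the microfibrillar type VI collagen, had the smallest p. It was at 559, 648, 679 and 597 CPM under vehicle and at 1121, 1601, 1026 and 886 CPM under neratinib. The vehicle libraries were close together and all lay below the lowest neratinib library (log2 fold change 0.90 ± 0.24, SE, unadjusted p = 0.0031; without any 1 library, 0.70 to 1.00). Ccn3, a secreted matricellular protein, was at 1.03, 1.22, 9.47 and 15.1 CPM under vehicle and at 221, 56.0, 23.6 and 17.8 CPM under neratinib. The groups of Ccn3 met at V53188 and N53194, and N53178 was far above the next library (log2 fold change 3.56 ± 1.12). Dpt, dermatopontin, a matrix protein of adventitial fibroblasts, was at 228, 134, 181 and 53.4 CPM under vehicle and at 1267, 292, 214 and 397 CPM under neratinib. N53178 was again the highest, and V53175 exceeded N53184 (log2 fold change 1.86 ± 0.60; 1.02 to 2.13 without any 1 library).

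The other higher genes were not matrix genes. Zswim4, a zinc finger protein, was at 11.8, 24.1, 32.2 and 12.5 CPM under vehicle and at 113, 53.9, 94.3 and 30.4 CPM under neratinib, with V53185 just above N53194. Metap1d, a mitochondrial methionine aminopeptidase, was at 21.9 to 28.4 CPM under vehicle and at 43.5 to 96.7 CPM under neratinib, and Srrm2, a large spliceosome protein, at 118 to 243 and 247 to 512 CPM. Plekha4, a phosphoinositide-binding protein, was at 15.0 to 27.8 and 39.0 to 70.3 CPM. None of these 3 genes overlapped between the groups, and their log2 fold changes were 1.35 ± 0.44, 1.03 ± 0.33 and 1.50 ± 0.49. Fam161b was at or below 0.527 CPM in the vehicle libraries and at 6.51, 24.9, 20.7 and 1.70 CPM under neratinib. In N53180 and N53184 its reads lay on the protein-coding transcript Fam161b-202, with 900 and 811 reads, whereas N53178 held 21 reads on that transcript and 173 on the retained-intron transcript Fam161b-204.

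The collagen genes leaned towards higher levels under neratinib. Of 17 collagen chains tested out of 18, 15 had a positive log2 fold change and 2 a negative one, where 52.8% of all genes were positive. At an unadjusted p under 0.05, 5 were higher and none lower, the background being 0.928% higher and 1.36% lower. In 4 chains all neratinib libraries lay above all vehicle libraries, which held for 1.19% of all genes tested. The median log2 fold change of the list was 0.57, beside 0.06 over all genes tested. Col3a1, the chain of type III collagen, was at 3308, 4592, 5602 and 5217 CPM under vehicle and at 9253, 8063, 7907 and 5779 CPM under neratinib, with N53194 just above V53185 (log2 fold change 0.73 ± 0.24, SE, unadjusted p = 0.0121). Col1a1 was at 4452, 3718, 10006 and 5582 CPM under vehicle and at 14862, 10787, 9659 and 7166 CPM under neratinib. Its groups overlapped because V53185 was above N53184 and N53194 (log2 fold change 0.84 ± 0.34, unadjusted p = 0.0332). Col18a1, a basement membrane collagen, was at 21.8 to 51.2 and 70.4 to 106 CPM and did not overlap. Col14a1, a fibril-associated collagen, was at 65.8, 16.1, 69.4 and 0.226 CPM under vehicle and at 388, 179, 120 and 96.8 CPM under neratinib, with a p of 0.0533. Col6a2 was at 208 to 390 and 335 to 711 CPM, and overlapped. This list, like the other gene lists, was chosen with earlier results of these data known, so its counts are a description only. Col14a1 and Col6a2 were picked for naming after their values were seen. The mean log2 CPM of the list in N53178, N53180, N53184 and N53194 was 8.97, 8.66, 8.36 and 7.81, and in V53175, V53179, V53185 and V53188 it was 7.55, 7.30, 8.51 and 7.63. The groups thus overlapped at V53185, and the median moved from 0.57 to 0.26 without N53178 and to 0.80 without V53185. Without both V53175 and V53188, the libraries that stood apart, it was 0.31.

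Matrix genes other than collagens gave mixed values. Of 22 glycoproteins, proteoglycans and crosslinking enzymes, 15 were positive and 7 negative, and no gene separated the groups. At an unadjusted p under 0.05, 2 were higher and none lower, beside 0.928% and 1.36% of all genes tested. The median was 0.32, and 0.16 without N53178. The summed level of the list was 27607 to 31344 CPM under vehicle and 24578 to 31937 CPM under neratinib. Tnxb, tenascin X, was at 179, 45.5, 87.7 and 28.7 CPM under vehicle and at 655, 258, 176 and 119 CPM under neratinib. Fbn1, the microfibril protein fibrillin 1, was at 241 to 475 and 396 to 1112 CPM, and Postn, periostin, at 71.9 to 313 and 142 to 585 CPM. All 3 overlapped between the groups, and N53178 was the highest library for each. Of 18 matrix proteases and inhibitors, 11 were positive and 7 negative with a median of 0.15, which was -0.02 without N53184, and none reached an unadjusted p of 0.05. The protease inhibitor gene Timp1 was at 1342 to 2613 CPM under vehicle and 822 to 1673 CPM under neratinib, and the plasminogen activator gene Plat at 1230 to 2823 and 1035 to 1541 CPM.

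Of the 9 tested genes for hyaluronan and its sugar precursors, 3 had an unadjusted p under 0.05, all lower, beside 1.36% of all genes tested. Because these genes were grouped after their values had been seen, the count is a description only. Has1, a hyaluronan synthase, was at 730, 910, 644 and 1154 CPM under vehicle and at 710, 553, 392 and 503 CPM under neratinib (log2 fold change -0.67 ± 0.27, SE, unadjusted p = 0.0301). Ugdh, which makes the UDP-glucuronate that hyaluronan synthases use, was at 659, 789, 454 and 919 CPM under vehicle and at 379, 415, 362 and 295 CPM under neratinib, without overlap (-0.96 ± 0.26, unadjusted p = 0.00389). Gfpt2, which starts the hexosamine branch, was at 2082, 1895, 782 and 2016 CPM under vehicle and at 758, 968, 892 and 647 CPM under neratinib (-1.05 ± 0.31, unadjusted p = 0.00673). V53185 was the low vehicle library in all 3 genes, and for Has1 and Gfpt2 it fell inside the neratinib range. A list of 10 such genes was put together after these values had been seen; of 9 tested, 6 were negative and 3 positive, namely Has2 (0.25), Pgm3 (0.52) and Ugp2 (0.06), with a median of -0.48, and the median ranged from -0.82 without N53178 to 0.20 without V53188.

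Markers of the inflammatory and myofibroblastic CAF states showed no common direction. Of 18 inflammatory CAF genes tested, 9 were positive and 9 negative with a median of 0.11. At an unadjusted p under 0.05, 1 was higher and 3 were lower, beside 0.928% and 1.36% of all genes tested. The lower ones were Il1r1, Has1 and the cytokine gene Il6, which was at 158, 94.7, 74.8 and 252 CPM under vehicle and at 52.7, 91.5, 75.8 and 68.4 CPM under neratinib. The higher one was Cxcl12, the CXCR4 ligand, at 180, 200, 114 and 133 CPM under vehicle and at 801, 258, 165 and 309 CPM under neratinib. Both genes overlapped between the groups, and 1 library was far above the rest of its group, V53188 for Il6 and N53178 for Cxcl12. Cxcl1, a neutrophil chemokine, was at 419 to 781 and 339 to 622 CPM. Of 18 myofibroblastic genes, 9 were positive and 9 negative, the median was 0.01, and none reached an unadjusted p of 0.05. Smooth muscle actin, Acta2, was at 52.6, 128, 254 and 241 CPM under vehicle and at 99.3, 388, 251 and 81.4 CPM under neratinib. Its range within each group was wider than the difference of the means (log2 fold change 0.28 ± 0.58), which changed sign to -0.02 without V53175 and to -0.23 without N53180. The contractile gene Tagln was at 24.7 to 126 and 11.3 to 91.4 CPM, with a log2 fold change of -0.11 ± 0.68 that became positive without V53185 (0.33), V53188 (0.03) or N53194 (0.24). Inhba, the activin A subunit, ran from 7.62 CPM in V53175 to 739 CPM in V53188 under vehicle and from 30.6 to 90.3 CPM under neratinib.

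Of 9 antigen-presenting CAF genes, 1 was positive and 8 negative, none at an unadjusted p under 0.05, with a median of -0.56. Cd74, the MHC class II invariant chain, was at 2994, 1962, 938 and 630 CPM under vehicle and at 816, 975, 1484 and 1327 CPM under neratinib, and H2-Ab1, a class II chain, at 677, 444, 247 and 164 CPM and at 223, 205, 343 and 268 CPM. In both genes V53175 was highest and V53188 lowest of the 8 libraries, so the vehicle group spanned the neratinib group. The median of the list was -0.14 without V53175. Msln followed the same vehicle order, at 1243, 654, 334 and 201 CPM, and was at 281, 569, 624 and 537 CPM under neratinib; its log2 fold change of -0.27 ± 0.50 became 0.34 without V53175. Of 11 mesothelial genes, 6 were positive and 5 negative with a median of 0.00. Saa3 and Slpi, secreted acute-phase and antiprotease genes, were at 14324, 12049, 3351 and 3345 CPM and at 8562, 6492, 1942 and 1294 CPM under vehicle. Under neratinib Saa3 was at 1529, 2121, 7744 and 4712 CPM, and Slpi at 397, 2463, 2733 and 2347 CPM. For both, V53175 and V53179 were the high libraries. Per transcript length, Saa3 was the most abundant nuclear mRNA of these CAFs, at 21500 ± 14245 TPM under vehicle and 9958 ± 6468 TPM under neratinib (SD, n = 4 each), ahead of the ferritin chains Fth1 (8677 and 5766 TPM) and Ftl1 (8380 and 6781 TPM), the actin-binding peptide Tmsb4x (7245 and 5635 TPM) and galectin 1, Lgals1 (6766 and 6217 TPM).

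**Figure D3:**
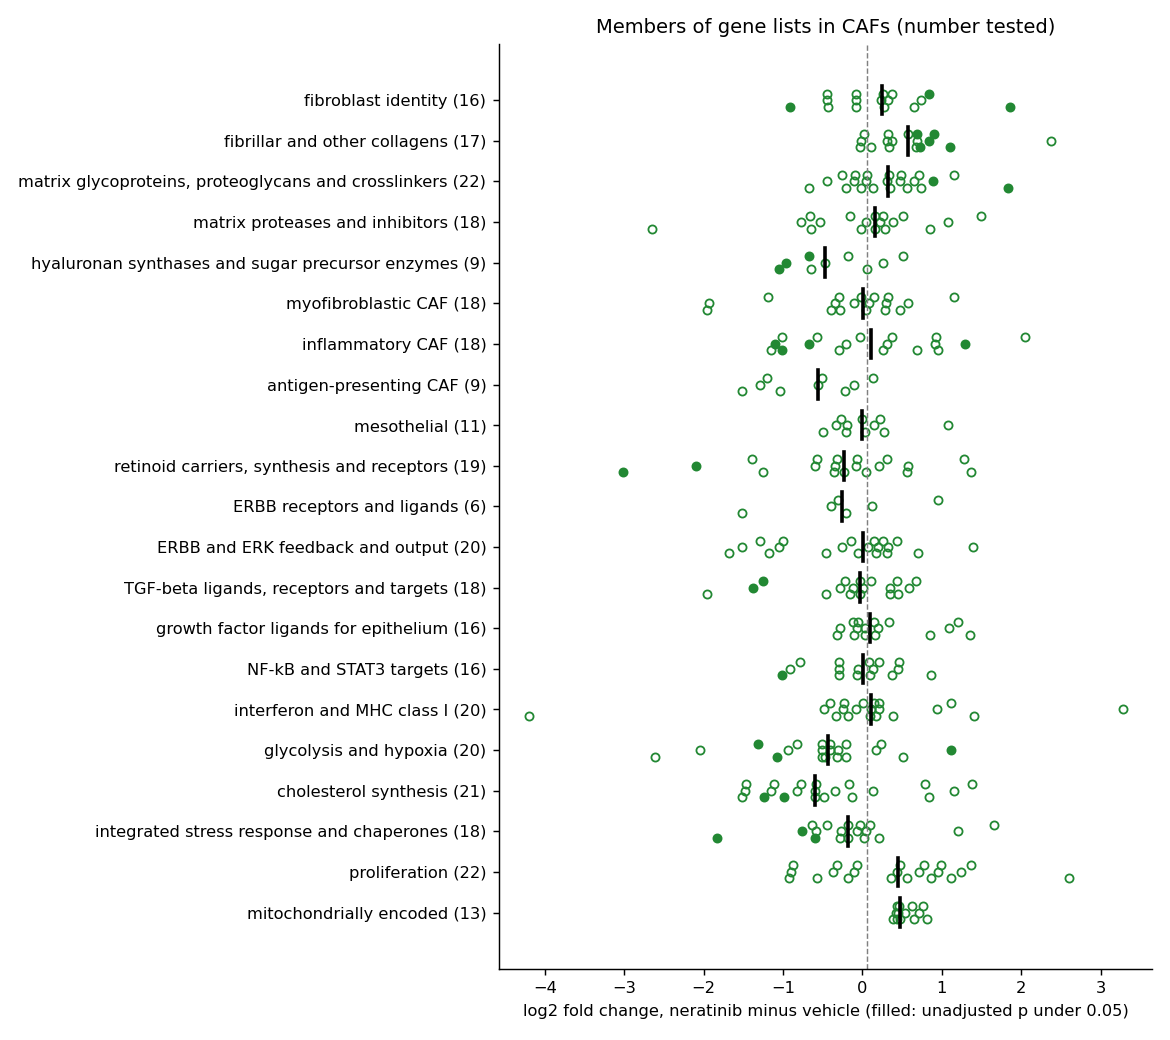
Each circle is 1 tested gene of the named list, placed by its log2 fold change of neratinib minus vehicle in CAFs and filled where the unadjusted p was under 0.05; black bars are list medians and the dashed line is the median of 0.06 over all genes tested. Collagens sat mostly to the right with a median of 0.57, and glycolysis and cholesterol genes mostly to the left with medians of -0.44 and -0.60.

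The retinoid genes held Crabp2 and a second low p. Of 19 tested, 7 were positive and 12 negative. At an unadjusted p under 0.05, 2 were lower, beside 1.36% of all genes tested. The median of the list was -0.23, beside 0.06 over all genes. The median ranged from -0.58 without N53184 to -0.07 without V53188. Aldh1a3, which makes retinoic acid from retinal, was at 17.5, 49.3, 65.8 and 111 CPM under vehicle and at 10.9, 13.2, 14.3 and 18.4 CPM under neratinib. The groups met at V53175, which lay below N53194 (log2 fold change -2.10 ± 0.62, SE, unadjusted p = 0.00616). In EpCAM+ cells Aldh1a3 was at 904 CPM under vehicle and 1018 CPM under neratinib. The epithelial marker set, 5 genes, summed to 911, 498, 285 and 273 CPM in V53175, V53179, V53185 and V53188, the reverse of the order of Aldh1a3 in those libraries. It summed to 156, 505, 710 and 716 CPM in N53178, N53180, N53184 and N53194, the same order as Aldh1a3 there. Nearly all of the sum was Krt7 and Krt19, and Krt19 is also on the mesothelial list. The 4 mesothelial markers summed to 2528, 1714, 1023 and 692 CPM in the same vehicle libraries. In the neratinib libraries they summed to 731, 1473, 1197 and 1954 CPM. The part of either marker set in the values of Aldh1a3 was not tested. Dhrs3, a retinal reductase induced by retinoic acid, was at 257 to 538 CPM under vehicle and at 275 to 312 CPM under neratinib (-0.57 ± 0.26, unadjusted p = 0.0522), and V53185 was its only vehicle library below the neratinib range.

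Of the receptors that neratinib inhibits, Egfr and Erbb2 were detected, and Erbb4 was at 0 CPM in all 8 libraries. Egfr was at 7.59, 159, 83.9 and 221 CPM under vehicle and at 37.7, 264, 99.9 and 111 CPM under neratinib. The spread within each group was far larger than the difference (log2 fold change 0.12 ± 0.81), which became negative without V53175 (-0.28), V53185 (-0.01) or N53180 (-0.51). Erbb2 was at 6.66 ± 7.15 CPM under vehicle and at 12.9 ± 5.85 CPM under neratinib (SD, n = 4 each), with 0 CPM in V53175, and Erbb3, below the count filter, reached 13.8 CPM in V53179. Of 15 ERBB receptors and ligands, 6 passed the count filter, 2 of them positive and 4 negative. The ligand gene Hbegf was at 86.3 to 183 CPM under vehicle and at 41.9 to 172 CPM under neratinib, and Ereg, epiregulin, at 0.484 to 57.7 and 0.914 to 30.0 CPM. Nrg1, the neuregulin 1 gene, did not pass the count filter and was at 52.3 CPM in N53178 and at or below 4.74 CPM in the other 7 libraries.

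Feedback and output genes of the ERK pathway showed no common direction in CAFs. Of 20 tested, 10 were positive and 10 negative, the median was 0.01, and none reached an unadjusted p of 0.05. Dusp6, the ERK phosphatase that is a standard readout of ERK activity, was at 76.1, 138, 77.7 and 132 CPM under vehicle and at 73.7, 243, 66.5 and 84.9 CPM under neratinib. N53180 held the highest value, and without it the log2 fold change went from 0.14 ± 0.46 to -0.50. Spry4, a Sprouty inhibitor, was at 10.1 to 43.9 and 14.4 to 43.4 CPM (log2 fold change -0.06 ± 0.67), and its sign changed without V53175, V53179, N53178 or N53194. Spred1, a RAS-ERK inhibitor, was at 99.5, 51.4, 31.6 and 84.5 CPM under vehicle and at 35.3, 46.9, 19.4 and 27.3 CPM under neratinib (-1.05 ± 0.51, unadjusted p = 0.0623). The AP-1 gene Fosl1 was at 29.6 to 68.9 CPM under vehicle and at 7.01, 12.8, 50.1 and 14.1 CPM under neratinib, where N53184 alone reached the vehicle range. The immediate early gene Egr1 was at 435 to 618 and 541 to 892 CPM. The cyclin gene Ccnd1 was at 15.8 to 73.3 and 24.3 to 68.4 CPM, with a log2 fold change of 0.26 ± 0.63 that was -0.02 without N53180.

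TGF-beta pathway genes were likewise mixed, with 8 of 18 positive, 10 negative and a median of -0.03. The 2 at an unadjusted p under 0.05 were both lower, beside 1.36% of all genes tested. Skil, a SMAD corepressor that TGF-beta induces, was at 290, 248, 151 and 415 CPM under vehicle and at 74.9, 193, 87.0 and 108 CPM under neratinib (log2 fold change -1.25 ± 0.39, SE, unadjusted p = 0.00888). Tgfbi, a TGF-beta-induced matrix protein, was at 208, 303, 119 and 81.0 CPM under vehicle and at 53.5, 98.2, 55.8 and 66.0 CPM under neratinib (-1.38 ± 0.43, unadjusted p = 0.00896). For Skil the vehicle library V53185, and for Tgfbi the vehicle library V53188, lay below the highest neratinib library, N53180. Of 16 growth factor ligands for epithelium, 10 were positive and 6 negative with a median of 0.09, and none reached an unadjusted p of 0.05; Wnt5a was at 9.52 to 27.4 and 9.94 to 56.9 CPM.

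Glycolysis and cholesterol genes leaned towards lower levels under neratinib. Of 20 glycolysis and hypoxia genes, 4 were positive and 16 negative with a median of -0.44, where 52.8% of all genes were positive. At an unadjusted p under 0.05, 1 was higher and 2 were lower, beside 0.928% and 1.36% of all genes tested. Pfkl, a phosphofructokinase subunit, was at 343, 300, 174 and 141 CPM under vehicle and at 99.5, 134, 101 and 119 CPM under neratinib. V53188 was just above N53180, and the groups did not overlap (log2 fold change -1.08 ± 0.33, SE, unadjusted p = 0.00752). Pgk1, phosphoglycerate kinase, was at 201 to 278 and 133 to 192 CPM, also without overlap. The glucose transporter gene Slc2a1 was at 152, 92.6, 100 and 223 CPM under vehicle and at 16.4, 49.6, 104 and 59.4 CPM under neratinib, and Hk1, a hexokinase, was the higher gene, at 30.6 to 52.9 and 44.6 to 142 CPM. N53184 was the neratinib library closest to vehicle: its mean log2 CPM over the list was 7.22, beside 5.94, 6.19 and 6.38 in N53178, N53180 and N53194 and 6.96 to 7.21 under vehicle. Without N53184 the median of the list was -0.58, and over all 8 single omissions it ranged from -0.58 to -0.33.

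Of 21 cholesterol synthesis genes tested, 5 were positive and 16 negative, and the median was -0.60. At an unadjusted p under 0.05, 2 were lower, beside 1.36% of all genes tested. Fdps, farnesyl diphosphate synthase, was at 158, 121, 84.5 and 168 CPM under vehicle and at 53.2, 50.7, 69.3 and 95.6 CPM under neratinib (log2 fold change -0.98 ± 0.35, SE, unadjusted p = 0.0178). Sqle, squalene epoxidase, was at 65.8, 142, 60.0 and 129 CPM under vehicle and at 18.1, 20.3, 46.5 and 82.4 CPM under neratinib (-1.25 ± 0.55, unadjusted p = 0.0469). In both genes N53194 was the high neratinib library and overlapped the vehicle range. The mean log2 CPM of the list ranged from 4.05 to 5.56 under vehicle and from 3.57 to 4.81 under neratinib, and the median ranged from -0.83 without N53184 to -0.38 without N53178. Over all genes tested, the mean log2 CPM was 2.49 in V53175 and in V53188, and 3.00 to 3.63 in the other libraries.

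**Figure D4:**
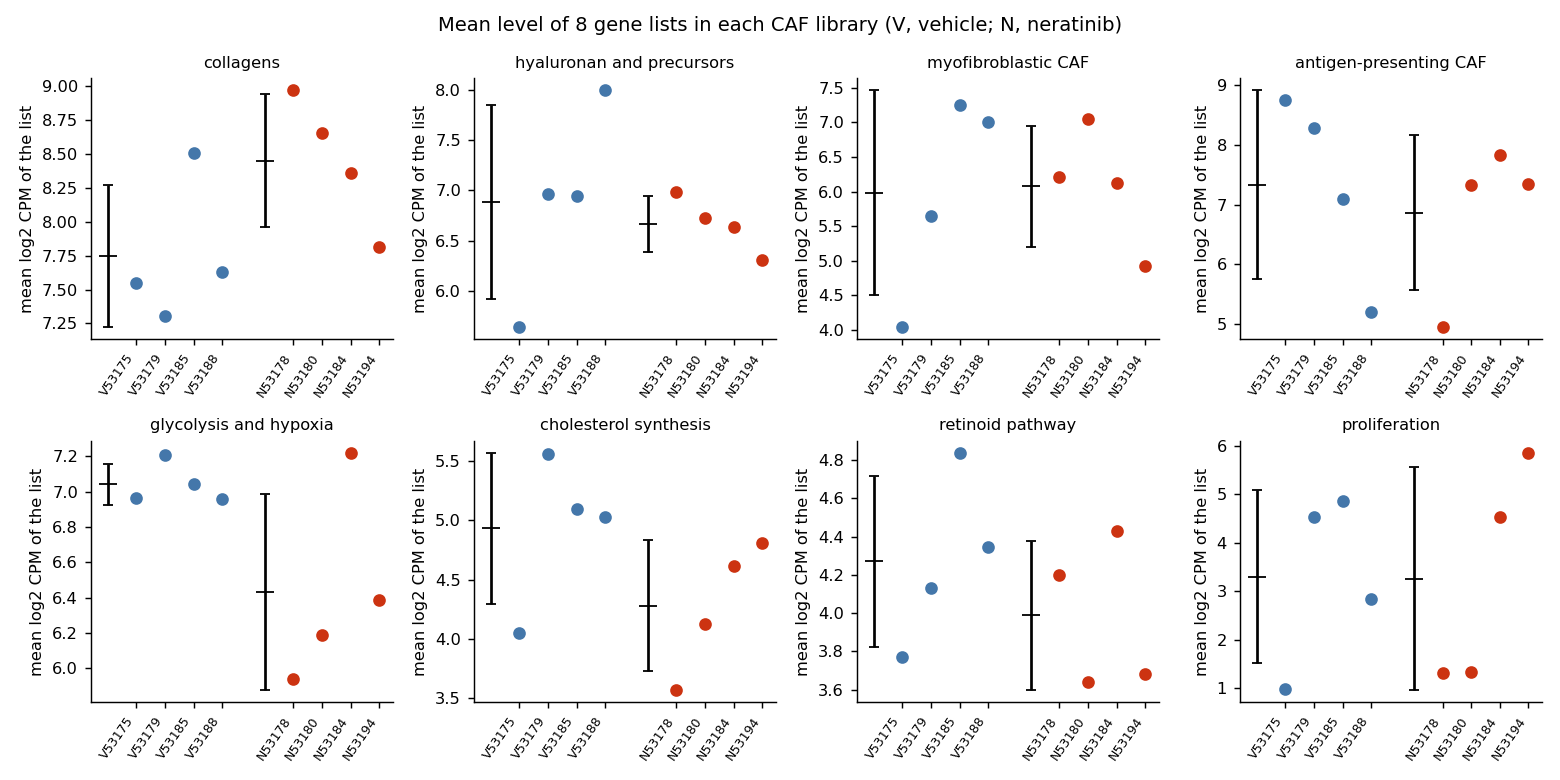
Mean log2 CPM of the tested members of 8 gene lists in each CAF library, with the group mean and SD as black bars; vehicle is blue and neratinib red, and each panel has its own vertical range. The groups overlapped in every panel, for collagens because of V53185, at 8.51, and for glycolysis because of N53184, at 7.22.

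Stress, proliferation and immune lists gave small or inconsistent medians. Of 18 integrated stress response and chaperone genes, 6 were positive and 12 negative with a median of -0.18. At an unadjusted p under 0.05, where 1.36% of all genes tested were lower, 3 were lower. These were Hspa5, the endoplasmic reticulum chaperone BiP, at 3256 to 4830 CPM under vehicle and 2152 to 3980 CPM under neratinib, its cofactor Dnajb9 at 154 to 347 and 135 to 154 CPM, and the asparagine synthetase gene Asns at 35.6 to 168 and 2.50 to 49.7 CPM. Of 22 proliferation genes, 13 were positive and 9 negative with a median of 0.45, which was -0.53 without N53194. Mki67 was at 6.11, 18.8, 71.1 and 7.80 CPM under vehicle and at 34.7, 13.1, 93.0 and 128 CPM under neratinib. All 13 mitochondrial mRNAs had a positive log2 fold change, between 0.38 and 0.81, none at an unadjusted p under 0.05, and the mitochondrial gene mt-Co2 was at 3613 to 12548 CPM under vehicle and at 8113 to 14966 CPM under neratinib. Of 16 NF-kB and STAT3 targets, 8 were positive and 8 negative, with a median of 0.01, and the 1 lower at an unadjusted p under 0.05 was Sod2, at 163 to 685 and 162 to 200 CPM. Interferon and MHC class I genes had 12 of 20 positive, with a median of 0.10.

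Transcripts of other cell types differed between libraries. The 9 leukocyte markers summed to 62.4 to 278 CPM under vehicle and to 55.7 to 567 CPM under neratinib, and N53184 held the highest sum. The pan-leukocyte gene Ptprc was at 13.5 CPM in N53184, 1.60 CPM in V53185 and at or below 0.105 CPM elsewhere, and Lyz2, a macrophage lysozyme, was at 389 CPM in N53184 and at 6.10 to 20.6 CPM in the other 7 libraries. Of the 9 macrophage and monocyte genes tested, 7 were positive and 2, Csf1r and Cd14, negative. Their median log2 fold change was 2.38, and it was 0.62 without N53184. The summed level of all 15 genes of the list went the other way in most libraries. It was 643, 427, 269 and 408 CPM in V53175, V53179, V53185 and V53188. In N53178, N53180, N53184 and N53194 it was 179, 148, 1231 and 221 CPM, so that N53184 alone was not below every vehicle library. Cd14 alone, at 347, 341, 188 and 336 CPM in these vehicle libraries, made up most of the sum in V53179, V53185 and V53188. Under neratinib it was at 52.5, 73.8, 341 and 107 CPM, so that N53184 alone matched vehicle. In EpCAM+ cells Cd14 was at 303 CPM under vehicle and 315 CPM under neratinib, so the order of the sums is largely that of 1 gene not confined to macrophages. The lymphatic transcription factor Prox1 was at 30.4 CPM in N53178 and at or below 0.705 CPM in the other 7, and the lymphatic chemokine gene Ccl21a was at 654 CPM in N53178, 56.3 CPM in N53184 and at or below 3.06 CPM elsewhere. N53178 was also the highest library for Col1a1, Col3a1, Ccn3, Dpt, Tnxb, Fbn1, Postn and Cxcl12. The Schwann cell marker Sox10 was at 0 in all 8 libraries, as was the acinar lipase gene Pnlip, and Cd3e of T cells did not exceed 1 CPM. What part these transcripts have in the values above was not tested.

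The neratinib effect in CAFs was also set against that in EpCAM+ cells in a fit of all 19 libraries, as the CAF effect minus the EpCAM+ effect. Of 19626 genes, 13 (0.0662%) passed an adjusted p of 0.05 in edgeR's quasi-likelihood test, 1 with a higher (0.00510%) and 12 with a lower (0.0611%) effect in CAFs. With the mouse as a block over the 16 libraries of mice that gave both populations, 0 of 19078 genes passed, 347 having an unadjusted p under 0.05. The same 16 libraries without the block gave 1 gene, none of those named here, and 1454 at an unadjusted p under 0.05. From the 19 libraries the count was 127 without V53175, 131 without V53188 and 572 without both; it was 23 without V53185, 28 without N53178, 21 without N53184 and 59 without N53194. The 4 lower protein-coding genes with the smallest p and a mean of at least 4 CPM in CAFs were Plekhb1 (difference -8.89, adjusted p = 0.00352), D3Ertd751e (-8.75, adjusted p = 0.00265), Lin9 (-5.87, adjusted p = 0.0105) and Dapk2, which had 0 reads in neratinib CAFs and an adjusted p of 0.0105. In EpCAM+ cells their own log2 fold changes were 0.05, 0.19, 0.15 and -0.44, none with an unadjusted p under 0.05. The 1 higher gene, Large2, a glycosyltransferase that acts on dystroglycan, lies outside the rule for naming genes because its mean was under 4 CPM; it was at 0 to 0.127 CPM in the vehicle CAF libraries and at 8.69, 6.73, 3.22 and 13.0 CPM under neratinib. In EpCAM+ cells Large2 was at 19.5 and 22.3 CPM. Crabp2 (difference -2.66, adjusted p = 0.24) and Aldh1a3 (-2.28, adjusted p = 0.09) did not pass, and neither did Col1a1 (0.59, adjusted p = 0.97).

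**Figure D5:**
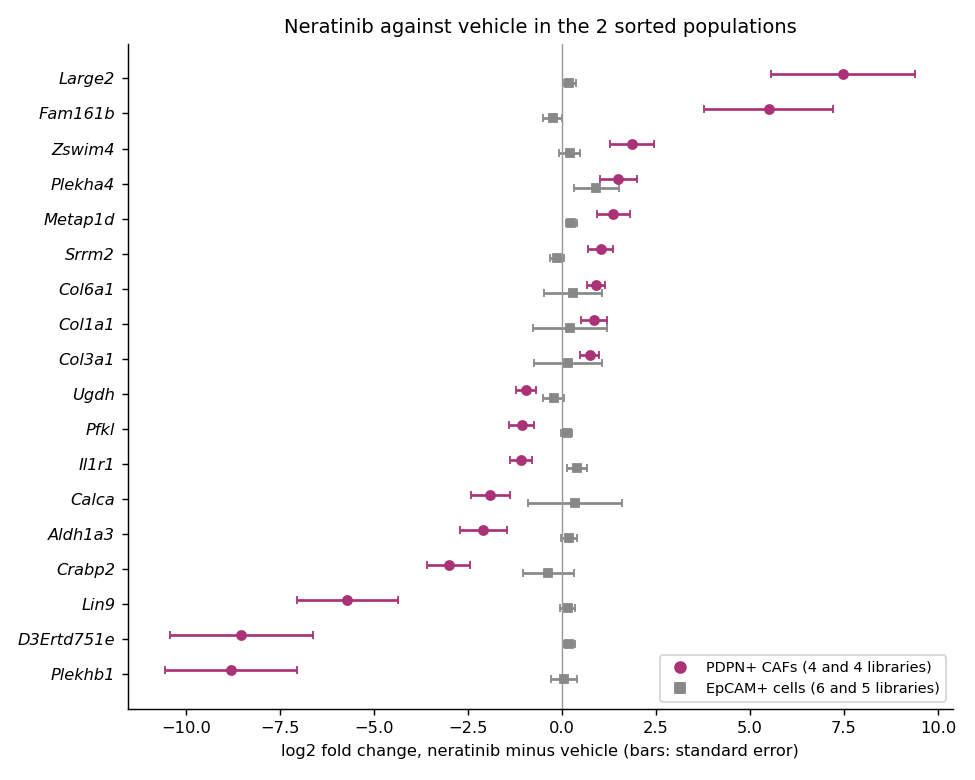
Log2 fold change of neratinib minus vehicle with its standard error, in PDPN+ CAFs (purple circles) and EpCAM+ cells (grey squares), for named genes measured in both; Dapk2 is left out because it had 0 reads in a whole group. Plekhb1, D3Ertd751e and Lin9 lay between -8.81 and -5.72 in CAFs and near 0 in EpCAM+ cells.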

How the data were processed

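Total RNA of sorted cells was amplified with a low-input kit, with more cDNA cycles for smaller inputs per the labels' protocols; which input each library had is not given in the sources used here. Salmon 1.9.0 and the builds GRCm39 and mm39 are named in the submitters' processing notes. Deposited per transcript were the authors' estimated counts, which need not be whole, their TPM and effective lengths. No strand setting is given in the sources used here, so antisense genes cannot be told apart from their partners.

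Here 137063 of 147828 transcripts were matched by identifier to 51707 GENCODE M21 genes, used for names only because that set is on another build; the other 10765 transcripts were left out. Estimated counts were summed per gene and rounded, filtered and TMM-scaled in edgeR 4.0.16 (R 4.3.3), and tested by its quasi-likelihood test with Benjamini-Hochberg adjustment over all genes. CPM are TMM-scaled. A floor of 3 reads bounds a gene at 0. Single values were compared by exact permutation tests, two-sided. Alternatives used DESeq2 1.42.0, limma 3.58.1 and left-out libraries. The scripts were tested on simulated data.

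The members and gene lists were chosen with earlier results of these data known. Genes named are a fixed list, up to 3 per list and the 5 highest in TPM. Named as well are up to 8 per direction with the smallest p among protein-coding genes with a mean of at least 4 CPM. Up to 4 per direction that passed against EpCAM+ cells are also named. Others, among them Col14a1 and Col6a2, lie outside this rule and were chosen after their values were seen. For the 8 mice with both populations, same-mouse libraries share an animal as read from the titles; their deviations from the group means correlated at -0.28 to 0.08 over 9251 genes.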

Additional observations from a re-analysis of the deposited data

Results flagged for a closer look

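In groups of 4 libraries a highest or lowest value was marked by its gap to the nearest other library. The gap had to take up a larger part of the group's range than Dixon's critical value at the 95% level. That level marks about 1 in 20 groups of normally distributed values. Of the named genes, 20 of 169 groups were marked. CPM, some near 0, need not be normally distributed, so this count cannot be set against 1 in 20. Several lay in N53184: Lyz2 at 389 CPM, Ptprc at 13.5 CPM, Timp1 at 1673 CPM, Fosl1 at 50.1 CPM and Erbb3 at 9.20 CPM were the highest of the neratinib group there, and so was Slc24a2 at 0.0511 CPM, the only neratinib library with a read of it. N53178 was the highest of its group for the lymphatic genes Ccl21a, at 654 CPM, and Prox1, at 30.4 CPM, and for Nrg1, at 52.3 CPM, and it was the lowest for Slpi, at 397 CPM. N53180 was the highest for Dusp6, at 243 CPM, and N53194 the lowest for Il1r1, at 163 CPM.

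Under vehicle, V53185 was the highest library for Ptprc, at 1.60 CPM, for Ccl21a, at 3.06 CPM, and for Nrg1, at 4.74 CPM, and the lowest for Gfpt2, at 782 CPM, and Cd14, at 188 CPM. V53175 was the highest for Cyp7b1, at 162 CPM, and for Slc24a2, at 17.4 CPM, and V53188 for Timp1, at 2613 CPM.

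The neratinib effect differed between CAFs and EpCAM+ cells by the interaction test for Plekhb1 (-8.89, log2), D3Ertd751e (-8.75), Lin9 (-5.87), Dapk2 (-11.94) and Large2 (7.24), with an adjusted p of 0.0105 or less in edgeR. The value of Dapk2 rests on a group with 0 reads and is no bound. None of these 5 passed in the 16 libraries of mice that gave both populations, with or without the mouse as a block.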

How the results depend on the processing

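No paired analysis was possible because no mouse gave both a vehicle and a neratinib CAF library; only the comparison with EpCAM+ cells could hold the mouse as a block. Over the 16 libraries this allows it called 0 genes with the block and 1 without it (the latter fit chosen after seeing the data), where all 19 libraries without the block gave 13. For neratinib against vehicle in CAFs, 0 genes passed with DESeq2 size factors in edgeR, without a count filter, with a stricter one, with voom and sample weights, with limma on log2(TPM + 0.1), with length offsets, with the code digit of the file names as a covariate, without both V53175 and V53188 and without any 1 library (0 to 0 genes; 262 to 635 at an unadjusted p under 0.05). DESeq2 called 12, limma on log2(TPM + 1) 1, and the fit of all 19 libraries 111. The median of all genes moved by -0.15 with voom and by -0.12 without a filter. Against EpCAM+ cells DESeq2 called 636 genes, voom 4, omission of both V53175 and V53188 572, and single omissions 13 to 131. The difference in genes detected, -538, was 764 without V53185 (range -1462 to 764); that in mitochondrial share ranged from 3.22 to 6.30 percentage points, the highest without V53188.

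These genes, none past the threshold, changed sign under an alternative. By single omissions the ranges were -0.23 to 0.54 for Acta2, -0.42 to 0.33 for Tagln, -0.57 to 0.34 for Msln, -0.51 to 0.58 for Egfr, -0.50 to 0.34 for Dusp6, -0.40 to 0.23 for Spry4, -0.019 to 0.81 for Ccnd1 and -0.24 to 0.11 for Lgals1. Msln was 0.023 with voom, and Dusp6 -0.12 with voom and -0.10 with limma on log2(TPM + 1) and on log2(TPM + 0.1). Without both V53175 and V53188, Hbegf was 0.053 and Fth1 0.11. The causes were not tested. Of the other single-gene values under an alternative, 1432 kept direction and side of the threshold and 16 newly passed, the latter with DESeq2, limma on log2(TPM + 1) or all 19 libraries. Depth limits the genes near 0: in the libraries, 3 reads were worth 0.0504 to 0.101 CPM, counting error only.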

Other observations

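Lists of other cell types gave the following values, beside a median of 0.06 over all genes tested. Of 9 pericyte and smooth muscle genes, 3 were positive and 6 negative with a median log2 fold change of -0.93. That median was -0.53 without N53194, -0.26 without both V53175 and V53188, -1.49 with voom and -0.32 with limma on log2(TPM + 1). Their summed level was 180 to 431 CPM under vehicle and 119 to 348 CPM under neratinib. Of 11 blood endothelial genes, 6 passed the count filter, 4 positive and 2 negative, at summed levels of 96.4 to 237 CPM and 131 to 362 CPM. Of 5 lymphatic endothelial genes, 3 passed it, 1 positive and 2 negative. The summed level of all 5 was 693 CPM in N53178, of which Ccl21a held 654 CPM, and at or below 26.0 CPM under vehicle. Of 17 epithelial genes, 10 passed the count filter, 6 positive and 4 negative. The sum of the list ran from 658 to 2055 CPM under vehicle and from 451 to 1849 CPM under neratinib. Krt8, Krt18 and Krt19 of this list are also on the mesothelial list. The 17 genes linked to tissue dissociation were level in mean, 9 positive and 8 negative with a median of 0.00.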
